A study of Mus musculus with 12 samples.

Results

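The genes described here are 9 genes commonly used to mark tissue macrophages: the complement genes C1qa, C1qb and C1qc, and the surface receptor genes Marco, Siglec1, Cd163, Vsig4, Mrc1 and Adgre1. They were chosen by name, with earlier results of these data known, and are 9 of the 53458 genes in the files. They were measured by RNA-seq in 12 libraries of type 1 conventional dendritic cells (cDC1), the dendritic cell subset specialised in presenting antigen to CD8 T cells, from mouse inguinal lymph nodes. The 4 groups hold 3 libraries each. Tumor-CD40 denotes a subcutaneous KPC tumor (KPC being the usual short name of a mouse pancreatic cancer model) together with a CD40 agonist, which switches on a costimulatory receptor of antigen-presenting cells. Tumor-NoCD40 denotes the tumor without the agonist, NoTumor-CD40 the agonist without a tumor, and NoTumor-NoCD40 neither. The labels used here give no strain, sex, age, dose, time or sort gate. They do not say whether libraries of a group came from separate animals, so every p-value measures only the spread between these samples, which may be technical.

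C1q is the recognition part of the classical complement pathway. Its A, B and C chains are encoded by neighbouring genes and assemble into a single protein, which binds immune complexes and dying cells and is made mainly by macrophages and some dendritic cells. The receptor genes encode proteins with which macrophages bind and take up particles, and in lymph nodes several of them mark the macrophages that line the sinuses. Marco is a class A scavenger receptor for bacteria and particles, Siglec1 (CD169) binds sialic acid and captures particles from lymph, Cd163 takes up haemoglobin bound to haptoglobin, Vsig4 binds complement C3 fragments, Mrc1 (CD206) is the mannose receptor, and Adgre1 (F4/80) is an adhesion receptor used as a macrophage marker.

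Siglec1 was higher in Tumor-CD40 libraries than in Tumor-NoCD40 libraries by a log2 fold change of 2.30 ± 0.47 (SE), and Marco and C1qb were higher in Tumor-CD40 libraries than in NoTumor-CD40 libraries by 4.02 ± 0.76 and 2.81 ± 0.52. C1qa had separate ranges in the same pairs of groups but did not pass the test. Cd163, Mrc1 and Adgre1 did not pass it in any comparison, and Vsig4 had no count in any library. These are differences among rare transcripts. The Marco and C1qb calls were lost whichever single library of the compared groups was left out. The Siglec1 call held in 1 of 6 such fits.

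The bases upstream of C1qb and Marco are shown because these are the 2 called genes with an entry in the promoter table; each is the 250 bases before the annotated start, 5′ to 3′ on the gene's own strand, from RefSeq on GRCm38.p6. C1qb lies on the minus strand of chromosome 4 and its window is chr4:136886201-136886450. Marco lies on the minus strand of chromosome 1 and its window is chr1:120505025-120505274. Capitals mark GAGGAA, a core motif of PU.1, a transcription factor of macrophages and dendritic cells.
C1qb: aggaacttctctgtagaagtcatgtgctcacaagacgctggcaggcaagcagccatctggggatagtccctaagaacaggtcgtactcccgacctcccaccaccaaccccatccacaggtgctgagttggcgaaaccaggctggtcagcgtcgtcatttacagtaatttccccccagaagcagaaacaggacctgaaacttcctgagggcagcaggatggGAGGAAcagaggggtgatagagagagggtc
Marco: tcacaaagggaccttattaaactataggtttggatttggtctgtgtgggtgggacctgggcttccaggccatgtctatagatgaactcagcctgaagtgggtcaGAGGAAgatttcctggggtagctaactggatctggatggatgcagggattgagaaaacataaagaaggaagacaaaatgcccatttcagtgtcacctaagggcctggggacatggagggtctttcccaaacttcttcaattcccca
The first base of the motif lay at position -30 relative to the start in C1qb and at -146 in Marco. On either strand, GAGGAA was in 23.1% of 27025 mouse promoter windows of this length. The table held windows of 6 of the 9 genes (C1qb, C1qc, Marco, Cd163, Vsig4 and Mrc1), and 5 of these, all except Cd163, held GAGGAA. None of the 6 windows held the interferon-stimulated response element (GAAA, any 2 bases, GAAA), the STAT site TTCNNNGAA or the AP-1 site TGANTCA, which were in 3.04%, 7.18% and 6.87% of all windows. No match overlapped another motif, and a match describes letters only.

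The libraries summed to between 22855143 and 27163393 expected counts, which are the read counts that the authors' quantification assigned to each transcript. Levels within a gene are given as normalized CPM (counts divided by an effective library size), and levels between genes as TPM, which also accounts for transcript length. The defining cDC1 genes were high: Irf8 ranged from 190 to 615 TPM over the 12 libraries, Batf3 from 65.6 to 152 TPM, Clec9a from 26.4 to 259 TPM and Xcr1 from 9.92 to 124 TPM. The macrophage genes were rare beside them. The mean TPM over 12 libraries was 1.6 for C1qb, 1.57 for C1qa, 1.33 for Adgre1, 0.971 for C1qc and 0.781 for Marco. Siglec1 averaged 0.199 TPM, Mrc1 0.124 TPM and Cd163 0.0825 TPM. By mean TPM, C1qb stood at percentile 38.6 of the 18095 genes tested and Cd163 at percentile 5.35. The ranges over libraries of neighbours in this order overlapped, from C1qb to Cd163. Vsig4 had 0 counts in each library, and 3 counts, the limit that a count of 0 allows, correspond to between 0.109 and 0.13 CPM per library, for counting error only. In bulk RNA, fewer cells of a type and less RNA per cell cannot be told apart.

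**Figure D1:**
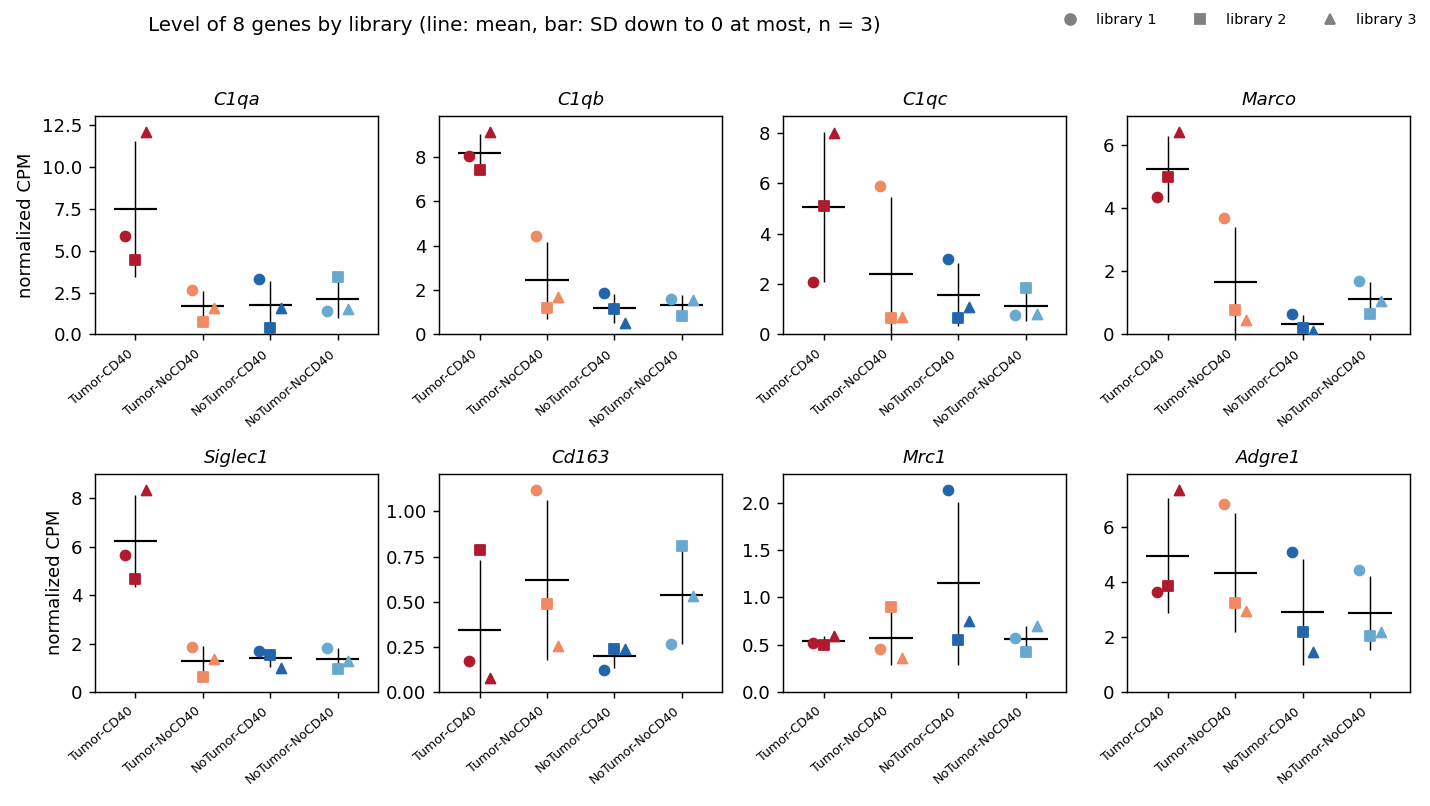
Normalized CPM of the macrophage genes with counts in each library of the 4 groups, with 1 point per library, a line at the mean and a bar for the SD (n = 3), drawn down to 0 at most. C1qa, C1qb, Marco and Siglec1 lie higher in all 3 Tumor-CD40 libraries than in any Tumor-NoCD40 or NoTumor-CD40 library, while Adgre1 and Mrc1 overlap between groups.

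The C1q genes lie side by side on the minus strand of chromosome 4 (GRCm38), C1qb at 136880129 to 136886187, C1qc at 136889804 to 136893065 and C1qa at 136895917 to 136898803. The values of C1qb, which encodes the B chain, were 8.05, 7.39 and 9.12 CPM in Tumor-CD40 libraries, 4.42, 1.2 and 1.67 CPM in Tumor-NoCD40 libraries, 1.85, 1.14 and 0.515 CPM in NoTumor-CD40 libraries, and 1.61, 0.844 and 1.56 CPM in NoTumor-NoCD40 libraries. The 3 Tumor-CD40 libraries lay close together and above every other library. C1qa, encoding the A chain, gave 5.88, 4.46 and 12.1 CPM in Tumor-CD40 libraries, 2.64, 0.753 and 1.6 CPM in Tumor-NoCD40 libraries, 3.29, 0.393 and 1.59 CPM in NoTumor-CD40 libraries, and 1.38, 3.41 and 1.52 CPM in NoTumor-NoCD40 libraries. It too was higher in each Tumor-CD40 library than anywhere else, with more scatter than C1qb. C1qc, encoding the C chain, gave 2.08, 5.12 and 8.01 CPM in Tumor-CD40 libraries, 5.91, 0.64 and 0.69 CPM in Tumor-NoCD40 libraries, 3, 0.667 and 1.07 CPM in NoTumor-CD40 libraries, and 0.765, 1.84 and 0.82 CPM in NoTumor-NoCD40 libraries. Its groups overlapped: library 1 of Tumor-NoCD40 was above library 1 and library 2 of Tumor-CD40.

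The 3 chains, which form a single protein, were therefore not at one ratio in every library. Per length, C1qc was the lowest chain in library 1 of Tumor-CD40, at 0.753 TPM beside 2.65 TPM of C1qa and 3.75 TPM of C1qb, and the highest in library 1 of Tumor-NoCD40, at 2.11 TPM beside 1.18 TPM of C1qa and 2.02 TPM of C1qb. Summed over the chains, C1q gave 16, 17 and 29.3 CPM in Tumor-CD40 libraries, against 13, 2.6 and 3.96 CPM in Tumor-NoCD40 libraries. The sum was 8.14, 2.2 and 3.17 CPM in NoTumor-CD40 libraries and 3.75, 6.1 and 3.89 CPM in NoTumor-NoCD40 libraries. Each Tumor-CD40 library exceeded all 9 others in this sum.

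Marco lies on the minus strand of chromosome 1 at 120474538 to 120505024. Its levels were 4.37, 5 and 6.42 CPM in Tumor-CD40 libraries, 3.68, 0.79 and 0.472 CPM in Tumor-NoCD40 libraries, 0.658, 0.196 and 0.119 CPM in NoTumor-CD40 libraries, and 1.68, 0.652 and 1.07 CPM in NoTumor-NoCD40 libraries. The Tumor-CD40 libraries were highest and the NoTumor-CD40 libraries lowest on average, and the NoTumor-CD40 values rest on 16, 5 and 3 counts. Siglec1 lies on the minus strand of chromosome 2 at 131069220 to 131086765. Its levels were 5.67, 4.67 and 8.36 CPM in Tumor-CD40 libraries, 1.86, 0.602 and 1.38 CPM in Tumor-NoCD40 libraries, 1.69, 1.53 and 0.991 CPM in NoTumor-CD40 libraries, and 1.84, 0.959 and 1.27 CPM in NoTumor-NoCD40 libraries. The 9 libraries outside Tumor-CD40 shared one narrow range, and each Tumor-CD40 library was above it.

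Adgre1 lies on the plus strand of chromosome 17 at 57358691 to 57483527. Its levels were 3.63, 3.88 and 7.37 CPM in Tumor-CD40 libraries, 6.86, 3.24 and 2.94 CPM in Tumor-NoCD40 libraries, 5.1, 2.2 and 1.47 CPM in NoTumor-CD40 libraries, and 4.44, 2.03 and 2.17 CPM in NoTumor-NoCD40 libraries. All groups overlapped, and 1 library of each stood above the others of its group. Mrc1, on the plus strand of chromosome 2 at 14229392 to 14332057, ranged from 0.363 to 2.14 CPM, its highest value being library 1 of NoTumor-CD40. Cd163, on the plus strand of chromosome 6 at 124304656 to 124330527, ranged from 0.0793 to 1.12 CPM, and 5 of the 12 libraries held at least 10 counts of it. Vsig4 lies on the minus strand of chromosome X at 96247203 to 96293438.

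Whether the agonist went with a difference in tumor-bearing mice was tested by comparing Tumor-CD40 with Tumor-NoCD40. Of the 8 genes tested, 1 rose and none fell at an adjusted p under 0.05, against 0.685% of all 18095 genes called. Siglec1 averaged 6.23 ± 1.91 CPM in Tumor-CD40 libraries and 1.28 ± 0.634 CPM in Tumor-NoCD40 libraries (SD, n = 3 each), a log2 fold change of 2.30 ± 0.47 (SE) with an adjusted p of 0.044 in edgeR's quasi-likelihood test. C1qa had a log2 fold change of 2.19 ± 0.61 (edgeR adjusted p = 0.165), C1qb 1.78 ± 0.45 (0.104), Marco 1.73 ± 0.55 (0.23) and C1qc 1.14 ± 0.72 (0.663), none of which passed. Cd163, Mrc1 and Adgre1 had log2 fold changes of -0.80 ± 0.84, -0.10 ± 0.78 and 0.22 ± 0.51. The libraries did not overlap, with Tumor-CD40 higher, for 4 of the genes (C1qa, C1qb, Marco and Siglec1), against 6.5% of all genes. The median log2 fold change was 1.43 over the 8 genes and -0.02 over all genes tested.

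The Siglec1 call was narrow. It held without library 2 of Tumor-CD40 (edgeR adjusted p = 0.049). It was lost when library 1 or library 3 of Tumor-CD40, or any of the 3 Tumor-NoCD40 libraries, was left out. In all these fits its log2 fold change ran from 1.96 to 2.64, with edgeR adjusted p up to 0.195. Over all genes, the same fits called between 26 and 226 genes, against 124 with every library kept. Without library 1 of Tumor-NoCD40, which held the highest C1qb, C1qc and Marco values of its group, the log2 fold changes of C1qc and Marco were 2.93 and 3.06, and neither passed. Library titles start with 1 of 4 number codes whose meaning is not given, and no code holds more than 1 library of a group. Between libraries that share a code, the ratio of Tumor-CD40 to Tumor-NoCD40 was 3.05, 7.75 and 6.06 for Siglec1, 1.82, 6.13 and 5.46 for C1qb, and 1.19, 6.32 and 13.6 for Marco.

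The tumor was compared in agonist-treated mice as Tumor-CD40 against NoTumor-CD40, which shares the Tumor-CD40 libraries with the comparison above. Here 2 of the 8 genes rose and none fell, against 0.199% of all genes called. Marco averaged 5.26 ± 1.05 CPM in Tumor-CD40 libraries and 0.324 ± 0.291 CPM in NoTumor-CD40 libraries (SD, n = 3 each), a log2 fold change of 4.02 ± 0.76 with an edgeR adjusted p of 0.0445. C1qb averaged 8.18 ± 0.871 CPM in Tumor-CD40 libraries and 1.17 ± 0.668 CPM in NoTumor-CD40 libraries, a log2 fold change of 2.81 ± 0.52 with an edgeR adjusted p of 0.0476. Siglec1 had a log2 fold change of 2.15 ± 0.47 (edgeR adjusted p = 0.0992), C1qa 2.11 ± 0.61 (0.286) and C1qc 1.71 ± 0.78 (0.53), and did not pass. Cd163, Mrc1 and Adgre1 had log2 fold changes of 0.77 ± 1.09, -1.07 ± 0.68 and 0.78 ± 0.54. Tumor-CD40 libraries were above all NoTumor-CD40 libraries for the same 4 genes as above, against 6.68% of all genes, and the median log2 fold change was 1.91, against -0.01 over all genes tested.

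Both calls were lost in each of the 6 fits that left out a library of either group. Marco then had log2 fold changes from 3.65 to 5.02 with edgeR adjusted p from 0.0526 to 0.283. C1qb had 2.48 to 3.30 with edgeR adjusted p from 0.0549 to 0.255. Over all genes, leaving out library 1, 2 or 3 of NoTumor-CD40 left 7, 0 and 0 genes called, against 36 with every library kept. Leaving out library 1, 2 or 3 of Tumor-CD40 left 29, 71 and 6. Between libraries that share a title code, the ratio of Tumor-CD40 to NoTumor-CD40 was 6.64, 25.4 and 54 for Marco, 4.35, 6.49 and 17.7 for C1qb, and 3.36, 3.05 and 8.44 for Siglec1. Each of these ratios was above 1, but the larger Marco ratios rest on 5 and 3 counts in the NoTumor-CD40 libraries.

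**Figure D2:**
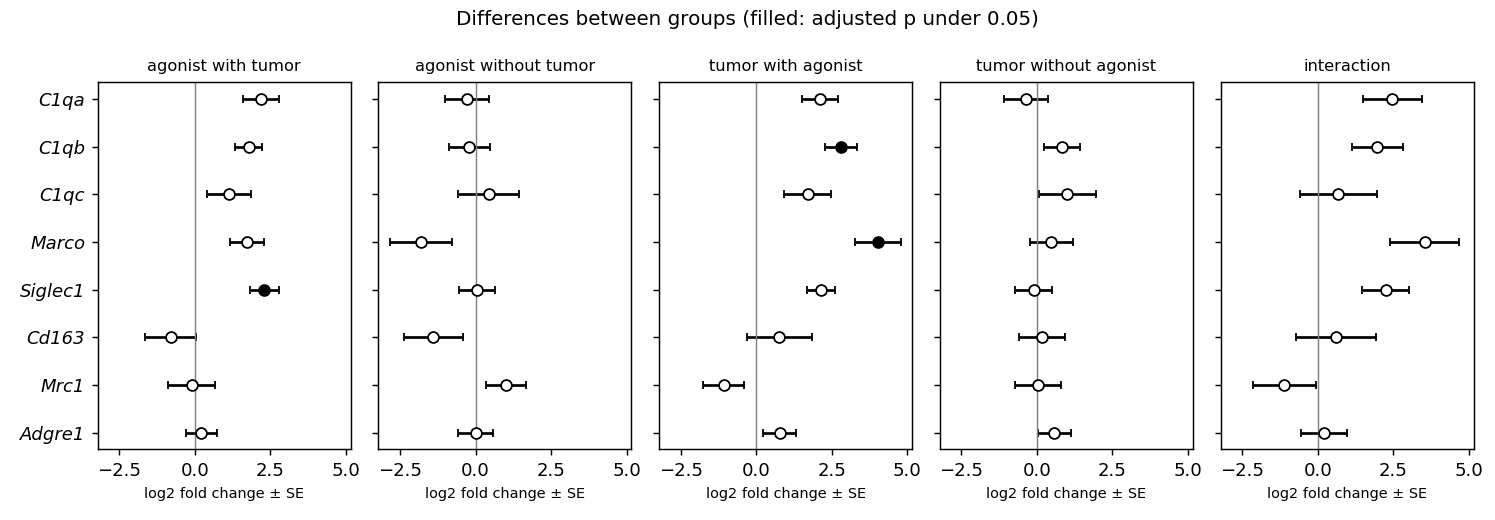
Log2 fold change of each macrophage gene tested in each comparison (point) with its standard error (bar), from edgeR; filled points passed an adjusted p of 0.05. Panels titled agonist compare agonist with no agonist and those titled tumor compare tumor with no tumor, each within the stated condition. The filled points are Siglec1 in Tumor-CD40 over Tumor-NoCD40, and Marco and C1qb in Tumor-CD40 over NoTumor-CD40.

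Without a tumor, the agonist went with no call among the 8 genes (0 of 8 by edgeR, 0 at an unadjusted p under 0.05 and 0 by DESeq2). By edgeR, 1.44% of all genes were called and 18.4% had an unadjusted p under 0.05. DESeq2 called 913 of all 18095 genes. Marco gave the log2 fold change farthest from 0, at -1.81 ± 1.02, with means of 0.324 CPM in NoTumor-CD40 libraries and 1.13 CPM in NoTumor-NoCD40 libraries (edgeR adjusted p = 0.354). Cd163 was at 0.123, 0.236 and 0.238 CPM in NoTumor-CD40 libraries, against 0.268, 0.806 and 0.533 CPM in NoTumor-NoCD40 libraries, and was the 1 gene whose groups did not overlap, against 12% of all genes lower without overlap. These Cd163 values rest on 3.05 to 6.16 expected counts in NoTumor-CD40 libraries and did not pass (edgeR adjusted p = 0.455). Siglec1 had a log2 fold change of 0.04 ± 0.60, with means of 1.4 CPM in NoTumor-CD40 libraries and 1.36 CPM in NoTumor-NoCD40 libraries. The median over the 8 genes was -0.10, against -0.04 over all genes tested.

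Without the agonist, the tumor likewise went with no call among the 8 genes (0 by edgeR, 0 at an unadjusted p under 0.05 and 0 by DESeq2). By edgeR, 0% of all genes were called and 5.82% had an unadjusted p under 0.05. DESeq2 called 29 of all 18095 genes. C1qc had a log2 fold change of 1.01 ± 0.93 and C1qb 0.84 ± 0.60, while Siglec1 was at -0.10 ± 0.61 and C1qa at -0.36 ± 0.74. None of the genes had groups that did not overlap, against 4.06% of all genes higher and 4.92% lower without overlap. The median was 0.32, against -0.01 over all genes tested.

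Whether the agonist difference itself depended on the tumor was tested as an interaction over all 4 groups. It passed for 0 of the 8 genes by edgeR and for 0% of all genes. By the same test, 4 of the 8 had an unadjusted p under 0.05, as did 9.8% of all genes. DESeq2 called 0 of the 8 and 18 of all 18095 genes. The interaction log2 fold change was 3.54 ± 1.15 for Marco (unadjusted p = 0.00695, edgeR adjusted p = 0.495), 2.47 ± 0.97 for C1qa, 2.25 ± 0.78 for Siglec1 and 1.98 ± 0.83 for C1qb. The calls in one pair of groups and their absence in the other pair are therefore not shown to differ.

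The transcripts behind the gene sums differed in length and in how often they appeared. C1qa, C1qb and C1qc each had 1 transcript with counts. Siglec1 came from a transcript of 6387 bases, Siglec1-201, which held 80.4% of its TPM and was present in every library, and from Siglec1-203 of 5790 bases. Siglec1-203 measured 0.118, 0.162 and 0.111 TPM in Tumor-CD40 libraries, against 0 in all 3 Tumor-NoCD40 libraries, 0, 0.0773 and 0 TPM in NoTumor-CD40 libraries and 0 in all 3 NoTumor-NoCD40 libraries. It was thus listed in each Tumor-CD40 library and in 1 of the 9 others, as estimated by the authors' quantification.

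Short transcripts carried part of the TPM of Marco and Adgre1. Marco-202, of 370 bases, held 2.3 of the 3.95 TPM of Marco in library 3 of Tumor-CD40 and 0.473 TPM in library 3 of NoTumor-NoCD40, and was at 0 in the other 10 libraries. The full-length Marco-201 alone measured 1.14, 1.39 and 1.64 TPM in Tumor-CD40 libraries, against 0.171, 0.0554 and 0.0378 TPM in NoTumor-CD40 libraries. Adgre1-203, of 402 bases, held 2.4 TPM in library 2 of Tumor-CD40 and 2.34 TPM in library 3 of NoTumor-CD40, and Adgre1-204, of 342 bases, held 1.43 TPM in library 1 of NoTumor-NoCD40. Leaving out transcripts under 500 bases, the mean over 12 libraries was 0.549 TPM for Marco and 0.797 TPM for Adgre1, which then stood below C1qc. Of the TPM of Cd163, 54.5% came from a retained-intron transcript.

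**Figure D3:**
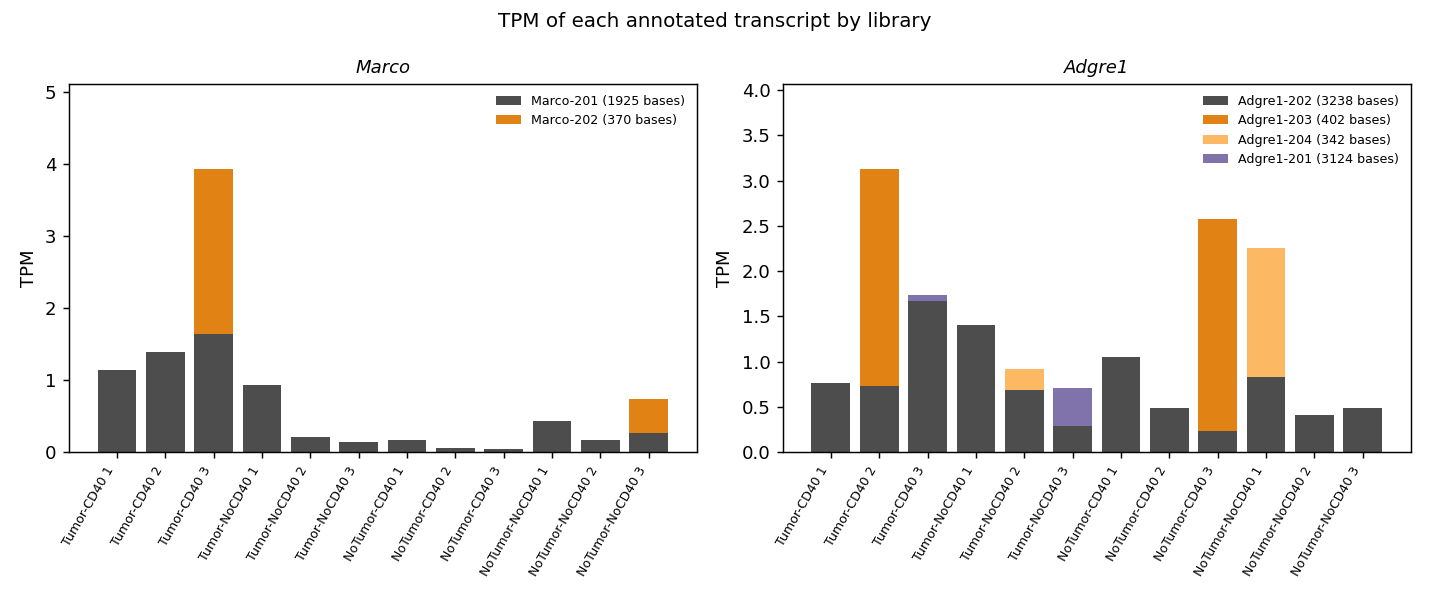
TPM of each annotated transcript of Marco and Adgre1 in each of the 12 libraries, as stacked bars. Marco-201 is highest in the 3 Tumor-CD40 libraries, and the short Marco-202 and Adgre1-203 appear in 2 libraries each.

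Over the 9 libraries outside Tumor-CD40, 28 pairs of the 8 genes were compared by exact two-sided permutation. C1qb and Adgre1 passed by Pearson's correlation and not by Spearman's, with r = 0.88 (exact p = 0.00106, Benjamini-Hochberg adjusted 0.0298) and rho = 0.88 (exact p = 0.00308, adjusted 0.0861), and with r = 0.69 without the 2 libraries farthest from the median. C1qa and C1qc had r = 0.73 (exact p = 0.0286, adjusted 0.201) and rho = 0.82 (exact p = 0.0108, adjusted 0.151), which did not pass, with r = 0.82 without the 2 farthest libraries. The other C1q pairs were less alike, with r = 0.24 for C1qa and C1qb (exact p = 0.531) and 0.55 for C1qb and C1qc (exact p = 0.141). Marco had r = 0.83 with C1qb (exact p = 0.00877, adjusted 0.11) and 0.79 with Adgre1 (exact p = 0.0118, adjusted 0.11), and neither passed. Library 1 was the highest for both C1qb and Adgre1 in each of these 3 groups and has the same title code in all of them. The libraries behind the correlation of C1qb and Adgre1 thus share a code, which the permutation does not take into account. Each code holds at most 3 of the 9 libraries, too few for a value within a code.

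Among 13265 other genes that averaged at least 1 CPM, those most like each macrophage gene were found by Pearson's r of log2 CPM over the 12 libraries, a description in which the group differences count. Siglec1 was most like Chst10 (0.946), a sulfotransferase gene, Ccr6 (0.934), a chemokine receptor gene, and Cd72 (0.932), a B cell surface receptor gene. Marco was most like Tgm1 (0.891), which encodes a transglutaminase, Apoe (0.859), an apolipoprotein gene, and Cx3cr1 (0.851), the fractalkine receptor gene of monocytes and macrophages. The genes most like C1qb were the immunoglobulin light chain genes Igkv3-4 (0.912) and Igkv4-59 (0.910) and Gpr183 (0.903), an oxysterol receptor gene. C1qa was most like Slc43a3 (0.918), Mrrf (0.909) and St6galnac3 (0.904), and C1qc most like Blvrb (0.877), Fbxl15 (0.843) and Igkv3-4 (0.840). By mean r to the 3 chains, the leading genes were Pxdc1 (0.838), Gm37233 (0.824), Igkv4-59 (0.814), Rpl22l1 (0.812) and Ighd (0.811), the gene of the IgD heavy chain. Cd163 was most like Gm10603 (0.848), Smad2 (0.835) and Palb2 (0.830), Mrc1 most like Stx12 (0.924), Dcp1b (0.848) and Lipo3 (0.806), and Adgre1 most like Csf3r (0.849), Rgl1 (0.822) and C330018D20Rik (0.810).

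Other genes of macrophages, of scavenger uptake and of complement were read from lists, also chosen with earlier results of these data known. Of 28 other macrophage genes 24 were tested, and 0 passed in any comparison by edgeR. Their median log2 fold change was 1.01 in Tumor-CD40 over Tumor-NoCD40, with 20 of 24 above 0, and 0.54 in Tumor-CD40 over NoTumor-CD40, with 15 of 24 above 0. The most abundant of them by mean TPM over 12 libraries were Lyz2 (lysozyme, 109 TPM), Cd68 (a lysosomal protein, 37.6 TPM), Apoe (32.2 TPM) and Vcam1 (an adhesion molecule, 21.3 TPM). Apoe measured 54.2, 40.3 and 76.6 CPM in Tumor-CD40 libraries, against 27, 26 and 16.2 CPM in NoTumor-CD40 libraries, a log2 fold change of 1.31 ± 0.27 that did not pass (edgeR adjusted p = 0.0741). In Tumor-NoCD40 libraries it measured 62.4, 42.5 and 39.8 CPM, which overlapped the Tumor-CD40 libraries (0.24 ± 0.26, edgeR adjusted p = 0.833). Cd68 had log2 fold changes of -0.89 ± 0.59 in Tumor-CD40 over Tumor-NoCD40 and -0.24 ± 0.59 in Tumor-CD40 over NoTumor-CD40. Further macrophage markers were near 0: Cd209f had a count in 1 library, at 0.0396 CPM, and Cd209g in 1 library, at 0.589 CPM.

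Of 20 other scavenger receptor genes 19 were tested, and 3 rose in NoTumor-CD40 over NoTumor-NoCD40, where none of the macrophage receptor genes was called. Clec7a, the beta-glucan receptor, had a log2 fold change of 1.80 ± 0.27 (edgeR adjusted p = 0.00659), Scarf1, a receptor for modified lipoproteins, 1.90 ± 0.44 (0.0488), and Ly75, the endocytic receptor DEC-205 of dendritic cells, 1.12 ± 0.24 (0.0369). None of the 19 passed in the other comparisons, by edgeR. The most abundant were Cxcl16 (246 TPM), Cd36 (55.9 TPM), Ly75 (45.5 TPM) and Scarb1 (19.2 TPM), and Megf10 had no counts.

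Of 27 other complement genes 22 were tested. Cfb, factor B of the alternative pathway, rose in NoTumor-CD40 over NoTumor-NoCD40, at 58.7, 29 and 79 CPM in NoTumor-CD40 libraries against 14.8, 13.4 and 7.75 CPM in NoTumor-NoCD40 libraries (log2 fold change 2.21 ± 0.39, edgeR adjusted p = 0.0151). Cr2, complement receptor 2 of B cells, rose in Tumor-CD40 over Tumor-NoCD40, with 42.8, 45 and 184 CPM in Tumor-CD40 libraries against 7.73, 4.44 and 4.36 CPM in Tumor-NoCD40 libraries (4.05 ± 0.64, 0.0115). Calr (356 TPM), C1qbp (87.2 TPM), Cr1l (66.6 TPM) and Itgb2 (60.3 TPM) were the most abundant. Calr and C1qbp encode proteins known to bind C1q, and neither was called in any comparison.

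Markers of other cells also differed between groups. Of 12 B cell markers, 9 rose in Tumor-CD40 over Tumor-NoCD40 and 5 in Tumor-CD40 over NoTumor-CD40, and none of the 12 was at 0 in all libraries. Their summed level ranged from 782 to 2196 CPM in Tumor-CD40 libraries, from 80.7 to 193 CPM in Tumor-NoCD40 libraries, from 119 to 271 CPM in NoTumor-CD40 libraries and from 81.9 to 146 CPM in NoTumor-NoCD40 libraries. The library with the most B cell marker RNA, library 3 of Tumor-CD40, also had the highest C1qa, C1qb, C1qc, Marco, Siglec1 and Adgre1. Cd79b and Cd22 were among the B cell genes that rose in both comparisons. Cr2, counted above with the complement genes, was among the 9 that rose in Tumor-CD40 over Tumor-NoCD40. The part of B cells in the macrophage gene results was not tested.

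Of 9 monocyte markers tested, 3 rose in Tumor-CD40 over Tumor-NoCD40 (Ly6c2, Ms4a4c and Chil3) and 0 passed in Tumor-CD40 over NoTumor-CD40 by edgeR. In the first of these, 7 of the 9 had a log2 fold change above 0. Ly6c2 also rose in NoTumor-CD40 over NoTumor-NoCD40, by 1.63 ± 0.29 (edgeR adjusted p = 0.016). Chil3 measured 0.649, 1.73 and 23.5 CPM in Tumor-CD40 libraries, against 0.165, 0.151 and 0.254 CPM in Tumor-NoCD40 libraries. Ccr2 went the other way, at 28, 19.7 and 18.3 CPM in Tumor-CD40 libraries against 93, 147 and 40.8 CPM in Tumor-NoCD40 libraries. Its log2 fold change of -2.09 ± 0.63 did not pass (edgeR adjusted p = 0.204). The 10 listed markers summed to between 495 and 615 CPM in Tumor-CD40 libraries, between 186 and 472 CPM in Tumor-NoCD40 libraries, between 171 and 363 CPM in NoTumor-CD40 libraries and between 419 and 545 CPM in NoTumor-NoCD40 libraries. The summed level of the other macrophage genes overlapped between all pairs of groups except NoTumor-CD40 and NoTumor-NoCD40, at 409 to 516 CPM in Tumor-CD40 libraries, 313 to 539 CPM in Tumor-NoCD40 libraries, 232 to 490 CPM in NoTumor-CD40 libraries and 512 to 582 CPM in NoTumor-NoCD40 libraries. Endothelial markers summed to between 48.2 and 89.5 CPM in Tumor-CD40 libraries, against 21.2 to 26.6 CPM in Tumor-NoCD40 libraries. They summed to 34.4 to 49 CPM in NoTumor-CD40 libraries and 20.7 to 26.4 CPM in NoTumor-NoCD40 libraries. Of 7 tested, 1 was called, Kdr, which rose with the agonist with and without the tumor. Its log2 fold change was 2.71 ± 0.52 in Tumor-CD40 over Tumor-NoCD40 (edgeR adjusted p = 0.0301). In NoTumor-CD40 over NoTumor-NoCD40 it was 2.50 ± 0.57 (edgeR adjusted p = 0.0462). Markers of plasmacytoid dendritic cells summed to between 486 and 624 CPM in Tumor-CD40 libraries, against 187 to 237 CPM in Tumor-NoCD40 libraries. They summed to 283 to 540 CPM in NoTumor-CD40 libraries and 158 to 230 CPM in NoTumor-NoCD40 libraries. This list holds Bst2, which is also in the list of type I interferon response genes below. Of 8 tested, 1 (Ly6d) rose in Tumor-CD40 over Tumor-NoCD40. In NoTumor-CD40 over NoTumor-NoCD40, 1 (Spib) rose, with a log2 fold change of 2.56 ± 0.42 (edgeR adjusted p = 0.0111). No listed marker of these types was at 0 in all libraries, and their part in the macrophage gene results was not tested.

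Further lists differed between groups without a call in Tumor-CD40 over Tumor-NoCD40 or over NoTumor-CD40 by edgeR. The 10 neutrophil markers, of which Camp was at 0 in all libraries, summed to between 3.55 and 25.6 CPM in Tumor-CD40 libraries, between 1.2 and 3.05 CPM in Tumor-NoCD40 libraries and between 1.92 and 30.8 CPM in NoTumor-CD40 libraries, and 4 of the 4 tested had a log2 fold change above 0 in Tumor-CD40 over Tumor-NoCD40 (median 4.07). Langerhans cell markers lay lower in Tumor-CD40 libraries, at 34.7 to 49.1 CPM, than in Tumor-NoCD40 libraries, at 71 to 151 CPM, and overlapped the NoTumor-CD40 libraries, at 31.8 to 183 CPM. Markers of mature or migratory dendritic cells summed to between 12127 and 15507 CPM in Tumor-CD40 libraries, against 13656 to 29905 CPM in NoTumor-CD40 libraries, with 0 of 14 log2 fold changes above 0 (median -0.58). In Tumor-NoCD40 libraries they summed to between 6916 and 22383 CPM. No Langerhans or mature dendritic cell marker was at 0 in all libraries, and the part of these cells in the macrophage gene results was not tested.

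Siglec1 is known as an interferon-inducible gene, and 30 other type I interferon response genes were set beside it. Of these, 12 rose in Tumor-CD40 over Tumor-NoCD40 and 12 in NoTumor-CD40 over NoTumor-NoCD40, while 0 passed in Tumor-CD40 over NoTumor-CD40 by edgeR. Oas3, an antiviral sensor, had log2 fold changes of 2.23 ± 0.22 in Tumor-CD40 over Tumor-NoCD40 and 2.89 ± 0.23 in NoTumor-CD40 over NoTumor-NoCD40, where Siglec1 had 2.30 ± 0.47 and 0.04 ± 0.60. Ifi203, another interferon-inducible gene of the list, was called with the tumor and not without it, with 1.28 ± 0.24 (edgeR adjusted p = 0.0269) in Tumor-CD40 over Tumor-NoCD40 and -0.10 ± 0.24 (0.869) in NoTumor-CD40 over NoTumor-NoCD40; the interaction did not pass (1.37 ± 0.34, 0.495). Their summed level was 2538 to 3149 CPM in Tumor-CD40 libraries, 1094 to 2179 CPM in Tumor-NoCD40 libraries, 2687 to 3521 CPM in NoTumor-CD40 libraries and 1796 to 2182 CPM in NoTumor-NoCD40 libraries. The list stood high in both agonist groups, and Siglec1 was highest in the 3 Tumor-CD40 libraries, with the other 3 groups overlapping. The part of interferon in the Siglec1 values was not tested.

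**Figure D4:**
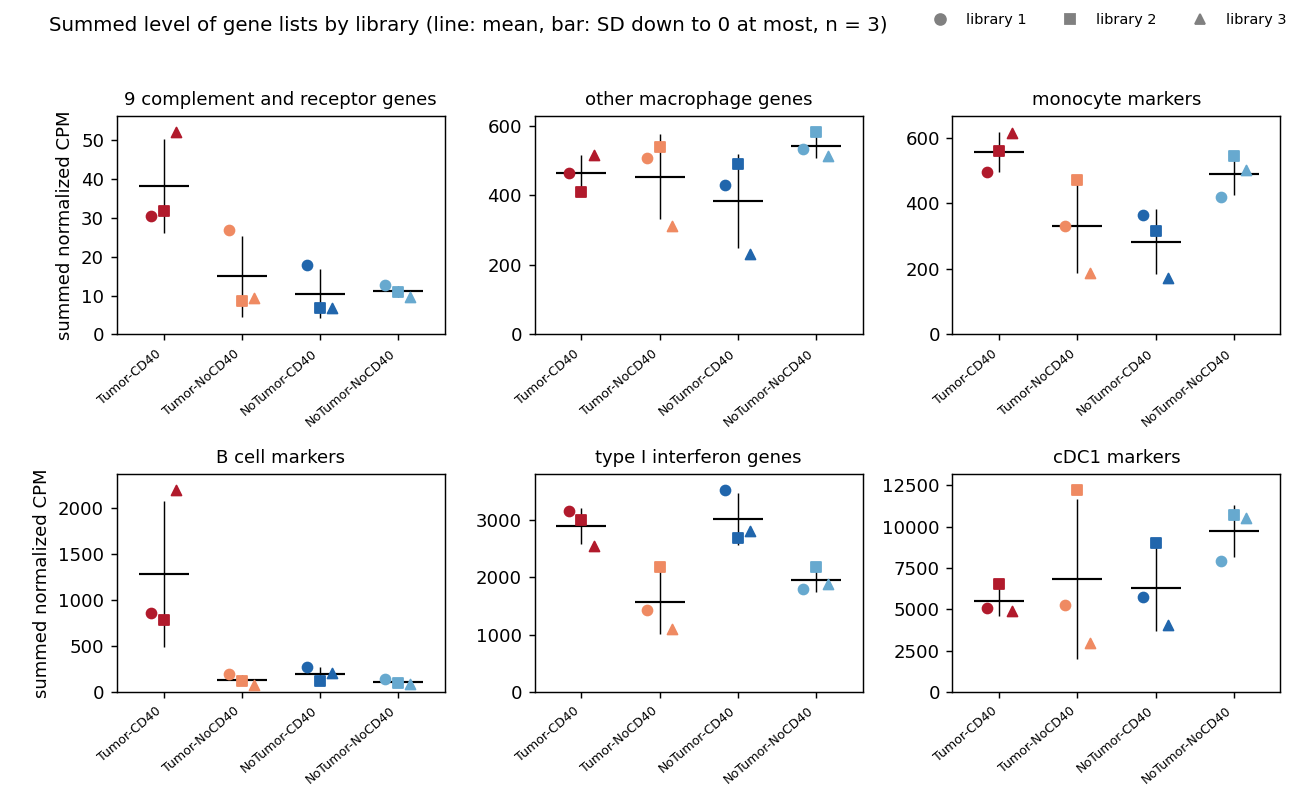
Summed normalized CPM of the 9 macrophage complement and receptor genes and of 5 marker lists in each library, with a line at the mean and a bar for the SD (n = 3). B cell markers and the 9 genes are highest in the Tumor-CD40 libraries, while type I interferon genes are high in both agonist groups.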

How the data were processed

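Per the labels' protocols, RNA came from a Qiagen RNeasy Plus Micro extraction and went into strand-specific libraries (NEBNext Ultra II Directional). Transcripts were quantified with Salmon against mm10, per the submitters' processing notes, although the tables are named for sailfish; versions and annotation release are not given in the sources used here. For each transcript the authors deposited expected counts (estimates, not normalized) and TPM, scaled by length and to a fixed total. With GENCODE M21 (GRCm38), 136176 of 136288 transcripts were summed to 53458 genes; the other 112 held 0.0279% to 0.0457% of a library's counts and were left out. Sums were rounded to whole numbers, scaled by trimmed means of M values (TMM) and filtered with filterByExpr (minimum count 10, minimum total 15), leaving 18095 genes. They were tested with edgeR 4.0.16 (R 4.3.3), quasi-likelihood, 1 mean per group, 8 residual degrees of freedom, with Benjamini-Hochberg adjustment over all genes tested and a threshold of 0.05. The common biological coefficient of variation was 58.4%. The scripts were tested on simulated data. Alternatives used DESeq2 1.42.0, limma 3.58.1, other scalings, no filter, log2(TPM + 1), log2(TPM + 0.1), a block for the title code, and each library left out in turn; TPM without short transcripts was chosen after seeing the data. Promoters came from RefSeq. The rule for named genes took all 9 genes in each comparison, the 3 genes most like each by correlation (5 for the C1q chains together), and from each of 3 related lists the called genes and the 4 of highest mean TPM; Cd209f, Cd209g, Oas3, Ifi203, Megf10 and genes named from other lists were chosen after their values were seen. The 9 genes and all lists were chosen with earlier results of these data known.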

Additional observations from a re-analysis of the deposited data

How the results depend on the processing

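The call of Siglec1 in Tumor-CD40 over Tumor-NoCD40 and those of Marco and C1qb in Tumor-CD40 over NoTumor-CD40 held with DESeq2 (adjusted p = 0.00433, 0.000803 and 0.00113), with relative log expression size factors, with library totals only and without the filter on low counts. DESeq2 called 316 of all genes in the first of these comparisons and 166 in the second, against 124 and 36 in the main fit. Without the filter, 200 and 89 of 31027 genes were called. Relative log expression factors gave 126 and 36, and library totals 138 and 46. In both comparisons the number of macrophage genes called was 0 with edgeR's legacy setting, limma-voom, and limma-trend on log2(TPM + 1) and on log2(TPM + 0.1). Over all genes, these settings called 61, 36, 29 and 21 in Tumor-CD40 over Tumor-NoCD40, against 124 in the main fit. In Tumor-CD40 over NoTumor-CD40 they called 0, 0, 12 and 6 of all genes, against 36. The cause was not tested. The log2 fold changes were 2.28, 2.39, 0.44 and 1.58 for Siglec1 under these 4 settings in that order, 4.0, 4.27, 1.43 and 3.45 for Marco, and 2.80, 2.97, 1.68 and 2.69 for C1qb; a pseudocount lowers the fold of rare transcripts. With each library of the compared groups left out in turn, the number of macrophage genes called ran from 0 to 1 in the first comparison. It was 0 throughout in the second. Over all genes, these fits with fewer samples called from 26 to 226 in the first comparison and from 0 to 71 in the second. DESeq2 also called Siglec1 in Tumor-CD40 over NoTumor-CD40 (log2 fold change 2.16, adjusted p = 0.0166). Libraries with the same title code correlated in their deviations from group means at 0.002 to 0.194, with 2 of 15 pairs over 0.1. Pairs with different codes correlated at -0.16 to 0.073. The main fit left the code out because its meaning is not given, and a block for it was an alternative. That block called 229 and 83 of all genes in the 2 comparisons, against 124 and 36 without it. In NoTumor-CD40 over NoTumor-NoCD40 it called 48, against 261. Library 3 of NoTumor-NoCD40 is the only library with its code, so under the block it adds nothing to differences between groups. With the replicate block for the code, the same 3 genes were called (adjusted p = 0.0366 for Siglec1, 0.0253 for Marco and 0.0288 for C1qb), and the 2 uncalled values of Siglec1 and Adgre1 in NoTumor-CD40 over NoTumor-NoCD40 turned to -0.11 each. Other reversed values were uncalled. Adgre1 in NoTumor-CD40 over NoTumor-NoCD40 was -0.03 with library totals and -0.10 with limma-voom. Mrc1 was 0.01 in Tumor-CD40 over Tumor-NoCD40 with limma-voom. In Tumor-NoCD40 over NoTumor-NoCD40, Marco was -0.04 and -0.20 and Mrc1 -0.01 and -0.05 on log2(TPM + 1) and log2(TPM + 0.1), and Mrc1 was -0.05 with limma-voom. Leaving out single libraries moved log2 fold changes across 0 for these uncalled results: in NoTumor-CD40 over NoTumor-NoCD40, C1qa (-1.07 to 0.28), C1qb (-0.66 to 0.16), C1qc (-0.38 to 0.99), Siglec1 (-0.15 to 0.33) and Adgre1 (-0.63 to 0.46); in Tumor-CD40 over Tumor-NoCD40, Mrc1 (-0.35 to 0.40) and Adgre1 (-0.18 to 0.69); in Tumor-NoCD40 over NoTumor-NoCD40, C1qa (-0.81 to 0.20), C1qc (-0.76 to 1.57), Marco (-0.82 to 0.95), Siglec1 (-0.42 to 0.24), Cd163 (-0.50 to 0.62) and Mrc1 (-0.46 to 0.30); in Tumor-CD40 over NoTumor-CD40, Cd163 (-0.67 to 1.27); and in the interaction, Cd163 (-0.83 to 1.28) and Adgre1 (-0.25 to 0.86). In TPM, the ratio of Tumor-CD40 to Tumor-NoCD40 was 5.03 for Marco and 1.85 for Adgre1, against 3.24 and 1.15 without transcripts under 500 bases and 3.2 and 1.14 in normalized CPM. At these depths a count of 3 is 0.109 to 0.13 CPM, which limits Cd163, Vsig4 and the NoTumor-CD40 values of Marco.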

Other observations

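Cd5l, a secreted scavenger receptor protein of tissue macrophages, and Pltp, a phospholipid transfer protein gene, were chosen from the other macrophage genes after their values were seen. Of the 24 tested in that list, 20 had a log2 fold change above 0 in Tumor-CD40 over Tumor-NoCD40, and 15 over NoTumor-CD40. Among those that went the other way, also named after their values were seen, Gpnmb had -1.50 ± 1.48 and -2.68 ± 1.23. Trem2 had -2.38 ± 1.10 over NoTumor-CD40. None of these passed. Pltp measured 5.24, 2.93 and 7.33 CPM in Tumor-CD40 libraries, against 2.35, 0.414 and 1.13 CPM in Tumor-NoCD40 libraries and 1.81, 0.707 and 1.55 CPM in NoTumor-CD40 libraries. Each Tumor-CD40 library was above all libraries of both other groups, and neither difference passed (edgeR adjusted p = 0.19 and 0.3, with log2 fold changes of 2.02 ± 0.59 and 1.94 ± 0.59, SE). Cd5l measured 0.0865, 5.33 and 8.28 CPM in Tumor-CD40 libraries, against 0.992, 0.113 and 0.0727 CPM in Tumor-NoCD40 libraries and 1.81, 0.196 and 0.634 CPM in NoTumor-CD40 libraries. It was thus high in library 2 and library 3 of Tumor-CD40 and near 0 in library 1, below library 1 of both other groups, where C1qa, C1qb, Marco and Siglec1 were all above the other groups (log2 fold change 3.62 ± 1.07, edgeR adjusted p = 0.181 over Tumor-NoCD40, and 2.41 ± 0.91, adjusted p = 0.441 over NoTumor-CD40).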
